A study of Mus musculus with 24 samples.

Results

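The miR-200 family of the mouse has 5 members, mmu-miR-200a, mmu-miR-200b, mmu-miR-200c, mmu-miR-141 and mmu-miR-429, written here without the species prefix. All 5 were chosen by assay name from the 584 miRNA assays of the series, and names ending in a star, which mark the opposite strand of a hairpin, were left out. Total RNA of 12 replicates, 3 in each of 4 groups, had been measured by quantitative PCR on TaqMan low density array cards A and B. CT-BM is primary mouse bone marrow. The series' design text describes marrow flushed from leg bones, its title names stem cells, and the growth protocol of these samples describes cells kept in suspension, so the state of these cells is not settled by the labels. L-1210 is a lymphocytic leukaemia line of lymphoblast-like cells in suspension, M1 is a myeloid leukaemia line of round cells in suspension, and PYS is a teratocarcinoma line of epithelial-like cells that adhere as monolayers. The lines were collected at passage 3, no treatment is labelled for any group, and each tumour type stands on 1 line. The labels do not say that the replicates of a group were separate cultures or animals, so the p-values measure only how these samples spread, which may be technical.

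MicroRNAs of this family are best known from epithelial tissues, where they repress Zeb1 and Zeb2, the transcription factors that shut down E-cadherin and other epithelial genes. Zeb factors in turn repress the miR-200 genes, and loss of the family is a textbook mark of the change from epithelial to mesenchymal form. A miRNA finds its targets mainly through its seed, the bases near its 5′ end, and each hairpin can yield a mature strand from either arm.

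The mature sequences are shown because the family divides in different ways by seed and by place in the genome. They were taken from RefSeq (build GRCm38.p6), in which all 5 members matched as the 3p strand, and capitals mark the seed, bases 2 to 8 from the 5′ end.
miR-200b-3p: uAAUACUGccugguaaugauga
miR-200c-3p: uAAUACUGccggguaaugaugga
miR-429-3p: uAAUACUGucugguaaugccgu
miR-200a-3p: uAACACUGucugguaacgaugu
miR-141-3p: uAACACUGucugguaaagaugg
The seed of miR-200b, miR-200c and miR-429 was carried by these 3 of 1738 mature mouse miRNAs, and that of miR-200a and miR-141 by these 2. Counted from 1 at the 5′ end, the seeds differ by the substitution U4C from miR-200b to miR-141. Across the 22 positions compared, miR-200b and miR-200c were alike at 20, as were miR-200a and miR-141, while the other pairs were alike at 17 or 18. How far the assay of a member also reads its nearest relative was not tested.

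The genes lie in 2 clusters that cut across the seeds. Mir200b, Mir200a and Mir429 lie on the minus strand of chromosome 4 within 1846 bases, chr4:156053905-156055750, inside the annotated span of the long noncoding RNA gene Gm13648. Mir200c and Mir141 lie on the minus strand of chromosome 6 within 477 bases, chr6:124717914-124718390, in the span of no other annotated gene, with Phb2 and Ptpn6 as the nearest protein-coding genes on either side. So miR-200c shares its seed with miR-200b and miR-429 but its cluster with miR-141.

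Of the 4 hairpins of which both strands were measured, those of Mir141 and Mir200a are shown. Both mature strands are in capitals, and the 5p strand, the star form, comes first.
miR-141 hairpin: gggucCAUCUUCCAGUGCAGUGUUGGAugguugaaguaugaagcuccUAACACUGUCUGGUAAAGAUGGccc
miR-200a hairpin: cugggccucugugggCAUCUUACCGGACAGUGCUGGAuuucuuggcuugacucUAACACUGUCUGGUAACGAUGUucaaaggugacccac

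A level here is minus the difference between the Ct of an assay, the PCR cycle at which it crosses the threshold, and the mean Ct of 3 control RNAs (MammU6, snoRNA135, snoRNA202) in the same run. It is on a log2 scale, so a level higher by 1 is a signal higher by 2-fold, and 48.3% of the 8969 wells gave no Ct. On card A, which holds all 5 members, the mean Ct of MammU6 was 7.91 in M1, and 10.1, 10.6 and 10.8 in CT-BM, PYS and L-1210. The mean Ct of snoRNA135 was 16.3 in M1, and 18.5, 16.6 and 17.4 in those groups, and that of snoRNA202 was 13.2 in M1, and 15.9, 14.3 and 13.2. The controls therefore moved between the groups and not by equal amounts, so each change was recomputed under 6 other scalings. Ratios of members within a replicate, which need no control, are given after the changes. In bulk RNA, fewer cells holding a miRNA and less of it per cell cannot be told apart.

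Every member amplified in every replicate of CT-BM, L-1210 and M1, including both leukaemia lines that grow in suspension. In PYS, the line described as epithelial-like, 4 of the 5 amplified in all 3 replicates, and miR-141 was not detected in the 2 replicates that hold its well. The members of the chromosome 6 cluster were highest in CT-BM and lowest in PYS on this scale. Those of the chromosome 4 cluster stayed within a narrower range of group means, from -12.63 to -11.25 for miR-200a, from -10.04 to -9.37 for miR-200b and from -11.05 to -10.09 for miR-429.

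**Figure D1:**
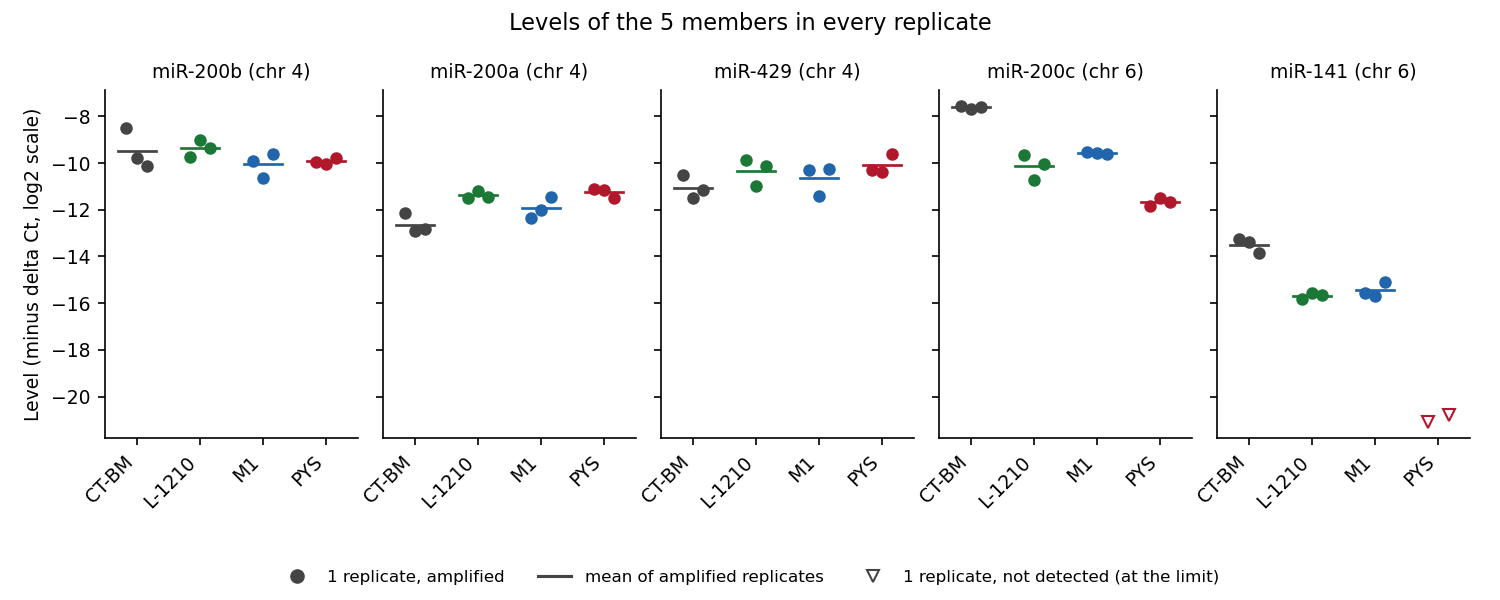
Level of each member (vertical axis, minus delta Ct on a log2 scale) in the 3 replicates of each group (horizontal axis), with horizontal lines at the mean of amplified replicates and open triangles for replicates with no detection. miR-200c has a mean of -7.61 in CT-BM and -11.67 in PYS, miR-141 has no amplified replicate in PYS, and the 3 members from chromosome 4 (left) lie close together in the 4 groups.

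In CT-BM, miR-200c stood at -7.54, -7.68 and -7.60. It stood at -9.52, -9.57 and -9.60 in M1, and at -9.64, -10.70 and -10.02 in L-1210. The PYS replicates were the lowest, at -11.84, -11.48 and -11.68. No 2 groups overlapped for miR-200c, and the order from high to low was CT-BM, M1, L-1210 and PYS, although the step from M1 to L-1210 did not pass the test.

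Its cluster partner miR-141 had levels of -13.23, -13.39 and -13.85 in CT-BM. L-1210 had -15.83, -15.55 and -15.65, and M1 had -15.56, -15.71 and -15.10. Here too CT-BM lay above both leukaemia lines with no overlap, while the leukaemia lines overlapped each other. The 2 PYS replicates lay below -21.10 and -20.78, the levels that a Ct at the limit of 35 would give, and the well of the remaining PYS replicate was absent.

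Against CT-BM, both members of the chromosome 6 cluster were lower in each of the 3 lines. In L-1210 the reduction of miR-200c was 5.71-fold (-2.51 ± 0.25 on the log2 scale, SE, n = 3 against 3, limma adjusted p = 1.10e-06) and that of miR-141 4.55-fold (-2.18 ± 0.24, limma adjusted p = 5.83e-06). In M1 the reductions were 3.88-fold for miR-200c (-1.95 ± 0.25, limma adjusted p = 1.38e-05) and 3.90-fold for miR-141 (-1.97 ± 0.24, limma adjusted p = 1.51e-05), so that the estimates for the pair lay within 1 SE of each other. PYS had the lowest level of both. There miR-200c was 16.7-fold lower (-4.06 ± 0.25, limma adjusted p = 5.02e-09), and miR-141 was at least 174-fold lower (n = 2 against 3), a bound set by the detection limit. No p-value is given for such bounds, because the undetected values were all set at that limit and have no measured spread of their own.

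Of the chromosome 4 cluster, miR-200a alone had called changes against CT-BM on this scale, and they were upward. For miR-200a, CT-BM had levels of -12.15, -12.92 and -12.83, and L-1210 had -11.49, -11.20 and -11.45. M1 had -12.36, -12.02 and -11.44, and PYS had -11.10, -11.17 and -11.49. CT-BM was the lowest group by its mean, below every replicate of L-1210 and PYS, and it overlapped M1. miR-200a was 2.39-fold higher in L-1210 than in CT-BM (1.26 ± 0.28, SE, n = 3 against 3, limma adjusted p = 0.00123) and 2.60-fold higher in PYS (1.38 ± 0.28, limma adjusted p = 0.000473). In M1 it was 1.62-fold above CT-BM (0.69 ± 0.28, limma adjusted p = 0.0369), under the 2-fold minimum set for a call.

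The levels of miR-200b in CT-BM were -8.48, -9.80 and -10.14, a spread of more than a cycle in which replicate 1 was the highest of the 12. L-1210 gave -9.74, -9.02 and -9.34, M1 gave -9.89, -10.62 and -9.60, and PYS gave -9.95, -10.06 and -9.76. The CT-BM range overlapped that of each line, and no change was called on this scale. Under other scalings miR-200b was called lower in PYS in 3 of 7, and in L-1210 higher in 3 of 7 and lower in 1 of 7. The 95% interval of the log2 change ran from -1.32 to 0.42 in PYS, from -1.45 to 0.31 in M1 and from -0.78 to 0.98 in L-1210, so the intervals in M1 and PYS include a 2-fold reduction.

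For miR-429, which shares the seed of miR-200b, CT-BM had levels of -10.52, -11.48 and -11.14. L-1210 had -9.86, -11.00 and -10.13, M1 had -10.31, -11.39 and -10.23, and PYS had -10.30, -10.37 and -9.61. The means of the 3 lines were above that of CT-BM, by 0.95 ± 0.40 in PYS (limma adjusted p = 0.0392), 0.72 ± 0.40 in L-1210 (0.119) and 0.40 ± 0.40 in M1 (0.377), and none reached 2-fold. Leaving out CT-BM replicate 1, PYS replicate 1 or PYS replicate 2 brought the PYS value past the threshold, at 1.22, 1.06 and 1.09, and leaving out L-1210 replicate 2 did the same in L-1210, at 1.05.

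Counted over the family, 1 of 5 members was called higher and 2 of 5 lower in L-1210 against CT-BM, beside 22.5% and 45.6% of all 333 assays tested. In M1, 0 of 5 were called higher by limma (1 of 5, miR-200a, at an unadjusted p under 0.05) and 2 of 5 lower, beside 25.2% and 44.3% of 325 assays. In PYS, 1 of 5 was higher and 2 of 5 lower, beside 39.8% and 38.7% of 362 assays. These counts are near the background, in which 68.2%, 69.5% and 78.5% of the assays were called in either direction. The family's median log2 change was -0.45 in PYS, -0.57 in M1 and 0.10 in L-1210, against 0.08, -0.59 and -0.82 over all assays tested. The 3 comparisons share the CT-BM replicates.

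The scaling bears on these values in different degrees. Over the 7 scalings tried, miR-200c against CT-BM ran from -4.98 to -2.55 in PYS, from -2.27 to -1.22 in M1 and from -4.15 to -0.77 in L-1210. It was called lower in each of them except in L-1210 with MammU6 alone (-0.77). For miR-141 in L-1210, MammU6 alone also ended the call (-0.44), and quantile normalization turned the direction in L-1210 (1.97) and in M1 (4.18), while its reduction in PYS was called in all 7. The rise of miR-200a was called in 5 of 7 scalings in L-1210, where snoRNA202 alone turned it to -0.38, and in 4 of 7 in PYS, where it ran from 0.46 to 3.50. Before any scaling, the Ct of miR-200c was 22.1, 22.7 and 22.5 in CT-BM and 22.4, 21.8 and 21.9 in M1, so the unscaled values of these groups overlapped, while the scalings that use no control RNA also called it lower in M1 (-1.40 with the mean of assays amplified in all 12 replicates and -1.22 with quantile normalization). In PYS its Ct was later than in CT-BM without any scaling, at 25.7, 25.0 and 25.9.

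**Figure D2:**
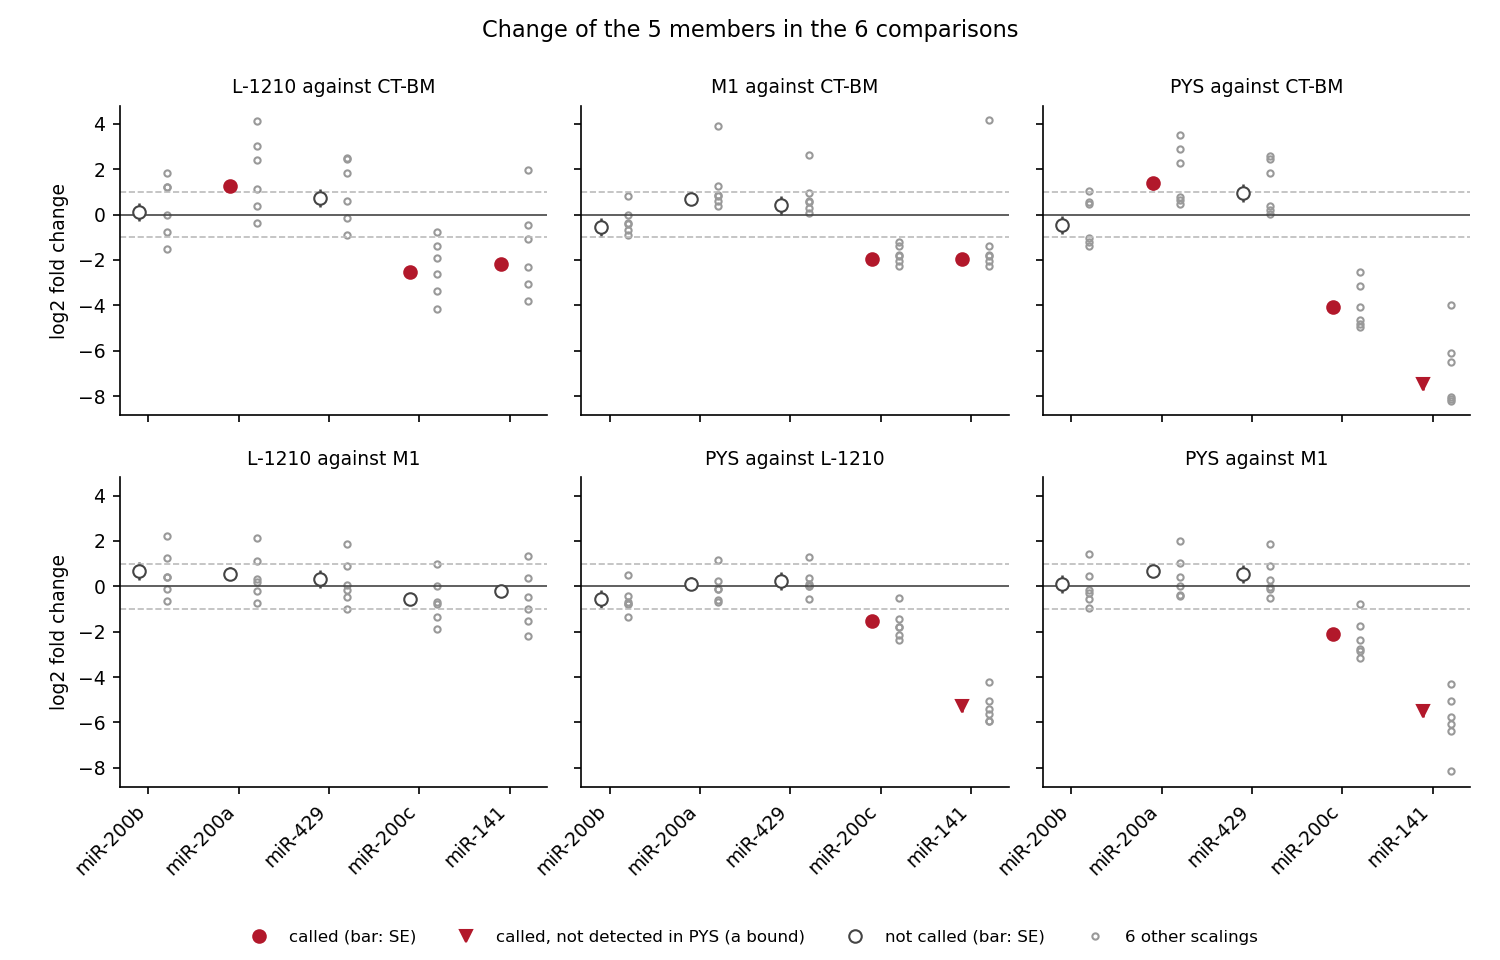
log2 fold change of each member (vertical axis) in the 6 comparisons, with SE bars, filled red symbols for called changes, triangles for the bounds of miR-141 in PYS, small grey circles for the 6 other scalings and dashed lines at a change of 2-fold. miR-200c and miR-141 lie below 0 in each line against CT-BM except that quantile normalization puts miR-141 above 0 in L-1210 and M1, and the members from chromosome 4 lie on both sides of 0 as the scaling changes, apart from miR-200a and miR-429 in M1 and in PYS against CT-BM.

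Between the leukaemia lines no member differed past the threshold with all 3 controls. None of the 5 was called by limma in L-1210 against M1 (0 of 5 higher and 0 of 5 lower), beside 25.3% and 30.9% of 304 assays tested (56.2% in either direction), and 1 of 5, miR-200c, had an unadjusted limma p under 0.05. The log2 changes ran from -0.56 ± 0.25 for miR-200c (limma adjusted p = 0.0669) to 0.67 ± 0.40 for miR-200b (limma adjusted p = 0.163), and the sign of each of the 5 turned under at least 1 other scaling. With MammU6 alone 4 of 5 were called higher in L-1210 than in M1, beside 152 of all 304 assays. With snoRNA202 alone 2 of 5 were called lower, beside 179 of the 304.

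PYS differed from both leukaemia lines in the chromosome 6 cluster. Against L-1210, miR-200c was 2.92-fold lower (-1.55 ± 0.25, limma adjusted p = 8.52e-05) and miR-141 at least 38.4-fold lower (n = 2 against 3, a bound). Against M1, miR-200c was 4.30-fold lower (-2.10 ± 0.25, limma adjusted p = 4.40e-06) and miR-141 at least 44.7-fold lower (n = 2 against 3, a bound). The 3 members from chromosome 4 were not called in either comparison, with log2 changes from -0.55 to 0.24 against L-1210 and from 0.12 to 0.68 against M1. By limma, 2 of 5 members were thus called lower and 0 of 5 higher in each (at an unadjusted p under 0.05, 0 of 5 higher against L-1210 and 1 of 5, miR-200a, against M1), beside 27.8% lower and 46.1% higher of 349 assays against L-1210, and 27.4% lower and 46.2% higher of 340 assays against M1 (73.9% and 73.5% in either direction). With snoRNA202 alone miR-200c was not called against L-1210 (-0.50), and with MammU6 alone it was not called against M1 (-0.78).

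Since all 5 members lie on card A, the difference in Ct between a pair of them in the same replicate gives their log2 ratio with no control. Assays differ in efficiency, so the ratio itself has an unknown offset, and what can be compared is how it differs between groups. The ratio of miR-200c to miR-141, the pair from chromosome 6, was 5.69, 5.71 and 6.25 in CT-BM, 6.19, 4.85 and 5.62 in L-1210, and 6.04, 6.14 and 5.51 in M1. These 3 groups overlapped throughout, with means of 5.88 ± 0.32, 5.55 ± 0.68 and 5.89 ± 0.34 (SD, n = 3). In PYS only a lower bound can be formed, because miR-141 was not detected in the 2 replicates that hold its well. There miR-200c had a Ct of 25.7 and 25.9, against the limit of 35 for miR-141. With that limit the bound lay above the ratio in every replicate of the other 3 groups, so in these 2 replicates the pair did not keep its proportion. A lower limit would give a lower bound.

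For members that share a seed but not a cluster, the groups stood further apart. The ratio of miR-429 to miR-200c was -2.98, -3.80 and -3.54 in CT-BM and 1.55, 1.11 and 2.07 in PYS. Between them lay M1, with -0.79, -1.83 and -0.63, and L-1210, with -0.22, -0.29 and -0.11. No 2 of the 4 groups overlapped, and the ratio was 5.01 higher on the log2 scale in PYS than in CT-BM. The ratio of miR-200a to miR-141 was 1.08, 0.47 and 1.02 in CT-BM, 4.34, 4.36 and 4.20 in L-1210, and 3.20, 3.69 and 3.66 in M1, again with no overlap. The ratio of miR-200b to miR-200c had means of -1.86 ± 0.83 in CT-BM, -0.48 ± 0.54 in M1, 0.75 ± 0.90 in L-1210 and 1.74 ± 0.28 in PYS (SD, n = 3), and there the groups overlapped in 3 of 6 comparisons, M1 with CT-BM and L-1210 with both M1 and PYS.

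Inside the chromosome 4 cluster some ratios differed between groups. miR-200a over miR-429 overlapped in all 6 comparisons, with group means from -1.59 to -1.05. miR-200a over miR-200b had means of -3.16 ± 0.50 in CT-BM, -1.90 ± 0.54 in M1, -2.01 ± 0.23 in L-1210 and -1.33 ± 0.35 in PYS, and CT-BM lay below each line with no overlap. miR-200b over miR-429, which share both cluster and seed, was 1.57 ± 0.53 in CT-BM and 0.17 ± 0.28 in PYS, with no overlap between these groups.

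**Figure D3:**
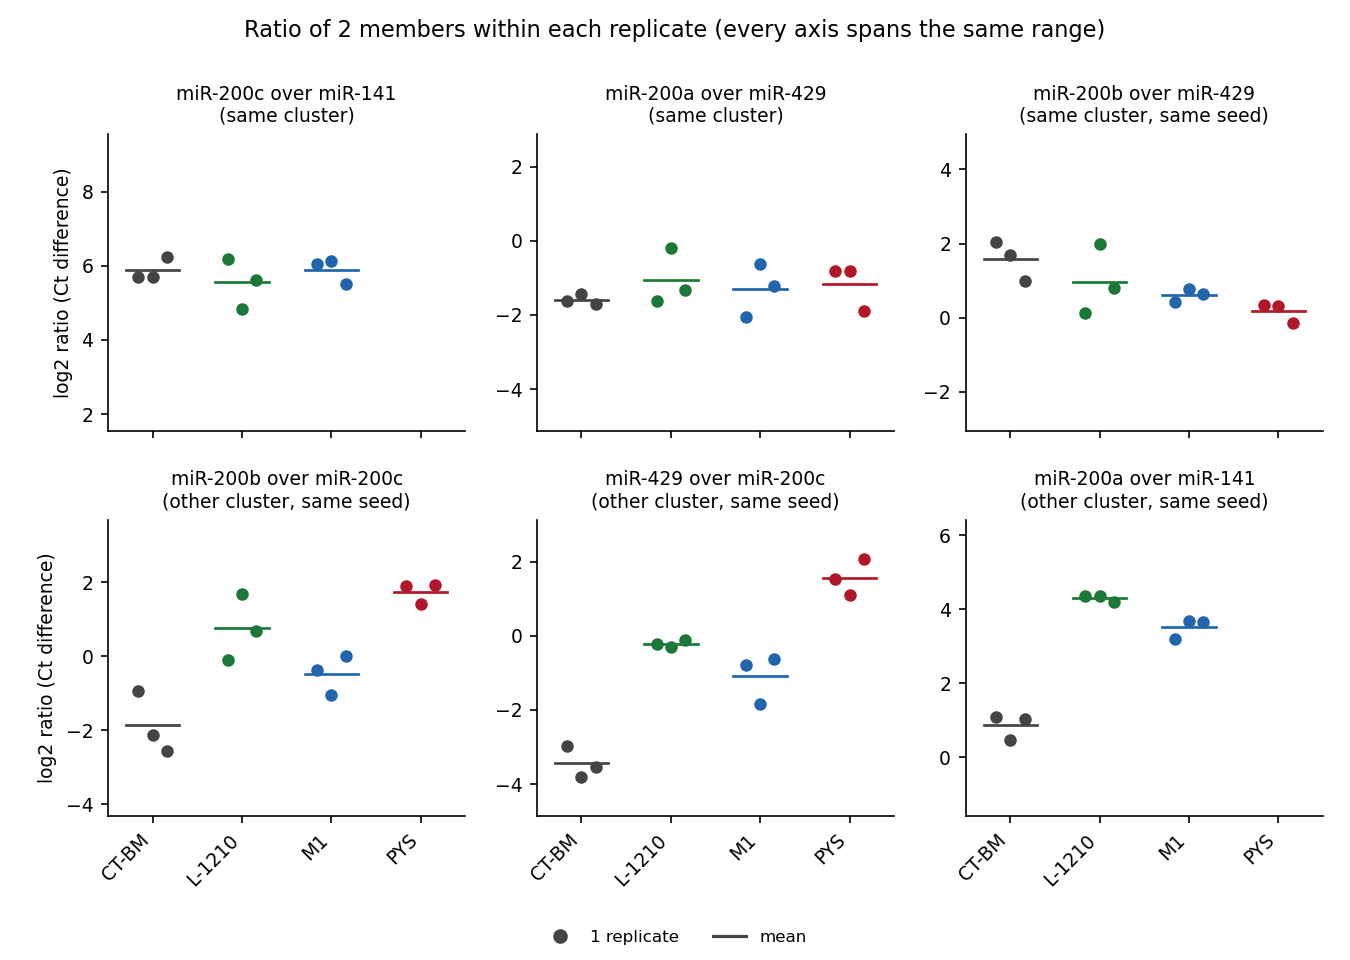
log2 ratio of 2 members within each replicate (vertical axis, a difference of Ct, the same span in every panel) in the 4 groups, with points for replicates and lines for means. In the upper panels, with members of the same cluster, the ratio of miR-200c to miR-141 overlaps between all groups that have it, while in the lower panels, with members that share a seed across clusters, CT-BM has the lowest mean.

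Over the 10 pairs and 6 comparisons, 48 ratios could be compared, since those with miR-141 are bounds in PYS and were left out. Among those left out is miR-200c over miR-141, of the same cluster, whose bound in PYS lay above every replicate of the other groups. For pairs of the same cluster the groups did not overlap in 7 of 21, or 33.3%, and the median absolute change was 0.44 (range 0.01 to 1.83). For pairs from different clusters they did not overlap in 22 of 27, or 81.5%, and the median absolute change was 2.36 (range 0.53 to 5.44). Among the pairs from different clusters, those that share a seed gave 12 of 15 with no overlap (80.0%, median absolute change 2.36) and those that do not gave 10 of 12 (83.3%, median 2.33). As background, 78.4% of the ratios among the 119 card A assays amplified in all 12 replicates did not overlap between groups, with a median absolute change of 2.00. By comparison that share was 75.3%, 76.9% and 87.7% for L-1210, M1 and PYS against CT-BM, 66.2% for L-1210 against M1, and 78.6% and 85.5% for PYS against L-1210 and M1. The pairs share members and the comparisons share groups, so these counts are not independent. With 3 against 3 replicates the exact two-sided permutation test cannot give less than p = 0.10, and over the 48 comparisons the smallest Benjamini-Hochberg adjusted value was 0.166.

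The opposite strands of 4 of the 5 hairpins were measured on card B. miR-200c* was not detected in any of the 12 replicates. miR-200a* amplified in all 12, with means of -15.18 ± 0.70 in CT-BM, -14.97 ± 0.44 in M1, -15.19 ± 0.48 in L-1210 and -14.71 ± 0.40 in PYS (SD, n = 3), and no comparison was called. miR-200b* amplified in both PYS replicates that hold its well, at -15.76 and -15.06, and in no replicate of the other groups. It was at least 42.8-fold higher in PYS than in CT-BM (n = 2 against 3, a bound for an assay that entered the test through PYS alone), although miR-200b itself was not called there.

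The strands of the Mir141 hairpin had opposite patterns in PYS. miR-141* stood at -11.95, -13.05 and -12.50 in PYS, with Ct from 25.2 to 25.8, while miR-141 was not detected there. In CT-BM miR-141* stood at -14.44 and -14.94 in the 2 replicates that hold its well, and it was not detected in the 2 such replicates of L-1210 or the 3 of M1, where miR-141 amplified. miR-141* was therefore 4.57-fold higher in PYS than in CT-BM (2.19 ± 0.38, SE, n = 3 against 2, limma adjusted p = 0.000254), at least 989-fold higher than in L-1210 and at least 1139-fold higher than in M1. Against CT-BM it was at least 217-fold lower in L-1210 and at least 249-fold lower in M1. The folds that involve L-1210 or M1 are bounds set by the Ct limit. In those tests miR-141* entered through PYS or CT-BM alone, so the filter largely set the direction. The level of miR-141 minus that of miR-141* was 1.38 ± 0.24 in CT-BM (SD, n = 2), at least 7.20 in M1 (n = 3), at least 6.71 in L-1210 (n = 2) and at most -8.71 in PYS (n = 2). For the Mir200a hairpin the same difference was 2.55 ± 0.37 in CT-BM, 3.03 ± 0.45 in M1, 3.81 ± 0.42 in L-1210 and 3.45 ± 0.32 in PYS (SD, n = 3). These differences carry the unknown offset between assays and set card A against card B, each scaled to its own controls.

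**Figure D4:**
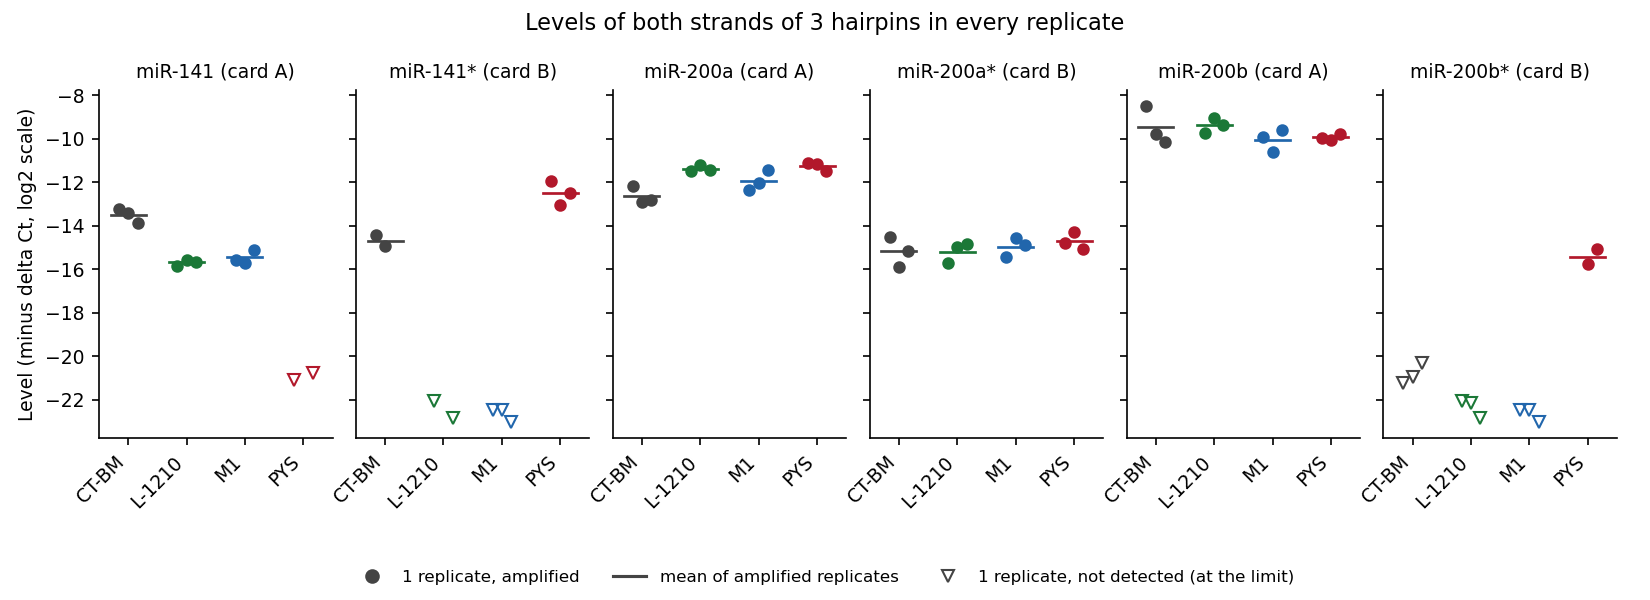
Levels of both strands of the Mir141, Mir200a and Mir200b hairpins (vertical axis, minus delta Ct on a log2 scale) in the 3 replicates of each group, with lines at the mean of amplified replicates and open triangles for replicates with no detection. In PYS miR-141 is not detected while miR-141* lies between -13.05 and -11.95, and in L-1210 and M1 the reverse is seen.

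Of the 3 assays whose levels followed each member most closely over the replicates, only those of miR-200a and miR-429 had any in common. Those of miR-200c and miR-141, which share a cluster, had none in common. These correlations join 4 groups of replicates measured on the same cards, so they mostly describe group means. For miR-200c the closest were miR-704 (Pearson r = 0.970, n = 12), miR-680 (0.950, n = 11) and miR-338-3p (0.931, n = 12). For miR-141 they were miR-181c (0.990), miR-199a-3p (0.989) and miR-322 (0.987), each over 11 replicates with PYS at the detection limit. miR-200c and miR-141 had r = 0.902 with each other (n = 11), which put miR-141 in place 11 among the 371 assays set against miR-200c. For miR-200a the closest were rno-miR-532-5p (0.894), miR-324-3p (0.889) and miR-501-3p (0.862), over 11 replicates. The first 2 of these were also the closest to miR-429 (0.665 and 0.657), followed by miR-132 (0.653, n = 12). For miR-200b the closest was miR-18b (0.724, n = 11), and the r of miR-200b with miR-200a was 0.148. Some of these values also rest on the Ct limit. Every replicate present amplified in only 1 of the 4 groups for miR-18b and in 2 for miR-501-3p. That held in 3 groups for rno-miR-532-5p, miR-324-3p and miR-338-3p. Between the clusters, miR-200a and miR-200c had r = -0.852 (n = 12).

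Other miRNAs known from epithelial cells had called changes in both directions. Of 7, 6 amplified in every PYS replicate that holds their well, 5 in CT-BM, 4 in M1 and 3 in L-1210. Against CT-BM, PYS was higher in 4 of 7 and lower in 3, beside 39.8% and 38.7% of all assays tested. The higher ones were miR-182 (743-fold), miR-183 (at least 1651-fold) and miR-96 (at least 212-fold), which come from a shared cluster, and miR-375 (81.9-fold), known from endocrine cells. The lower ones were miR-203, a miRNA of skin (at least 3091-fold), miR-31 (24.4-fold) and miR-205 (3.06-fold, n = 2 against 2). The signal of miR-205 was weak in both groups, with a mean Ct of 31.8 in CT-BM and 32.6 in PYS. In L-1210, 2 of 5 tested were higher and 2 lower (22.5% and 45.6% of all assays), and in M1, 1 of 5 was higher and 4 lower (25.2% and 44.3%), with miR-375 among the higher in both. An assay undetected in a group entered the test through the other group alone, so the filter largely set its direction. Such assays were miR-183, miR-96 and miR-203 in PYS, miR-203 and miR-205 in L-1210, and miR-205 in M1. So in PYS the direction of miR-203, miR-31 and miR-205 was that of miR-200c and miR-141, and the direction of the miR-183 cluster was the opposite.

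Markers of other cell types moved with the groups. All 6 blood cell miRNAs of the list amplified in CT-BM, where their summed level was 1.50 to 1.67, against -2.11 to -1.89 in M1, -5.06 to -2.91 in L-1210 and -11.16 to -10.71 in PYS. Of the erythroid miRNAs in that list, miR-486 was not detected in any of the lines, and miR-451 amplified in all 3 PYS replicates at a mean level of -13.55, against -5.97 in CT-BM, in 1 of 2 M1 replicates and in none of L-1210. The summed level of the 2 endothelial miRNAs was -1.84 to -1.69 in CT-BM and -5.26 to -4.26 over the lines. The summed level of the 7 mesenchymal and stromal miRNAs was -5.00 to -4.67 in CT-BM and -6.94 to -5.44 over the lines, and miR-21 was the highest of the 7 in every line, with means from -6.63 to -6.13 there and -6.01 in CT-BM. Of that list 5 of 6 tested were called lower in each line, with undetected assays set at the Ct limit. Those assays entered the tests through CT-BM alone, so the filter largely set their direction. The share of all assays called lower was 38.7% in PYS, 44.3% in M1 and 45.6% in L-1210. The list's median log2 change was -6.71 in PYS, -10.04 in M1 and -7.87 in L-1210, against 0.08, -0.59 and -0.82 over all assays tested. Of the list, miR-143 and miR-214 were detected in no line. All 12 miRNAs of the pluripotent cell list amplified in PYS, and 9 of them in no CT-BM replicate. The part of these cell types in the levels of miR-200c and miR-141 in CT-BM was not tested.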

How the data were processed

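Total RNA had been reverse transcribed, preamplified and run for 40 cycles on both TaqMan cards, per the labels' protocols. The deposited table holds the Ct of every well and the mean Ct over repeat wells of an assay, unscaled PCR cycles in other words, per the file headers. Software, detection limit and input amount are not given in the sources used here. The authors' design text names the 3 controls. Per-sample columns left unused numbered 0. Each replicate has a GEO sample per card, and which sample holds which card was set by assay content.

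Wells with no Ct or a Ct over 35 (15 wells) were set to 35 and called not detected. Folds against an undetected group are bounds, and calls of bounds rest on values set at that limit. Such assays entered the test through the other group alone. In R 4.3.3, limma 3.58.1 (lmFit, then eBayes) fitted the levels of all 12 replicates as 4 group means, over the assays detected in every replicate of at least 1 of the groups compared. Calls needed an adjusted p (Benjamini-Hochberg) under 0.05 and a fold of at least 2. The fit was tested on simulated data. Ratios used SciPy 1.17.1 exact permutation tests. Sequences and clusters came from RefSeq tables of GRCm38.p6.

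The number of replicates limits the precision, and repeat wells on card B differed by a median SD of 0.108 cycles. The assays named are the members, their star strands, the lists and the 3 assays most correlated with each member; members and lists were chosen with earlier results of these data known. Alternatives were other scalings, Ct limits of 32 and 40, other detection filters, only the groups compared, only card A, a replicate block, robust and trended eBayes, no fold minimum, and leaving out each replicate.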

Additional observations from a re-analysis of the deposited data

Results flagged for a closer look

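The difference between the strands of the Mir141 hairpin stood far apart in different groups. miR-141 minus miR-141* was 1.38 in CT-BM, at least 6.71 in L-1210 and at least 7.20 in M1, and it was at most -8.71 in PYS. The 2 assays lie on different cards and have an unknown offset, so the sign of each value carries no meaning of its own and what can be read is the shift between groups. That shift was not tested, because 1 of the strands was not detected in 3 of the 4 groups and these values are bounds at the Ct limit.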

How the results depend on the processing

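Values are log2 changes against CT-BM unless M1 or L-1210 is named, the cause was not tested, and no change printed here as turned had been called before, except miR-141 in L-1210 and M1 and miR-200a in L-1210, each against CT-BM. The scaling decides most of them: it moved the median of all assays by up to 1.87 (L-1210 with MammU6 alone) and -1.65 (L-1210 with snoRNA202 alone). With MammU6 alone, 3 members were called higher and 0 lower in L-1210 (1 and 2 in the report), beside 163 and 92 of all 333 assays. It called 2 higher in PYS (beside 205 of 362) and 4 higher in L-1210 against M1 (152 of 304). In PYS against M1 it called 3 higher and 1 lower (209 and 65 of 340). It turned miR-200b in PYS (1.06), miR-141 (1.34) and miR-200c (1.00) in L-1210 against M1, and miR-200a in PYS against L-1210 (-0.11). Scaled to the mean of the assays that amplified in all 12 replicates, 3 members were higher in L-1210 (beside 122 of all 333 assays), 1 in M1 (104 of 325) and 2 in PYS (165 of 362). That scaling also put 2 higher in L-1210 against M1 (106 of 304) and 1 in PYS against M1 (161 of 340). It turned miR-200b in PYS (0.45), miR-141 (0.35) and miR-200c (0.0076) in L-1210 against M1, and miR-200a in PYS against L-1210 (-0.11). With quantile normalization, 4 were higher and 1 lower in L-1210 (beside 140 and 109 of all 333 assays), and 3 higher and 1 lower in M1 (136 and 109 of 325). It put 2 higher in PYS (149 of 362) and 1 lower in L-1210 against M1 (95 of 304). It turned miR-141 in L-1210 (1.97) and M1 (4.18), miR-200b in M1 (0.84) and PYS (0.56), miR-200a in PYS against L-1210 (-0.61), and, against M1, miR-200a (-0.42), miR-200b (-0.28) and miR-429 (-0.045) in PYS and miR-429 in L-1210 (-0.14). With snoRNA135 alone, 0 were higher and 3 lower in PYS and 3 lower in PYS against L-1210, miR-200b being added (-1.37 and -1.36). It called 104 of all 362 assays higher and 171 lower in PYS, and 116 of 349 lower in PYS against L-1210. It turned miR-200b in L-1210 (-0.0060), miR-200a (-0.69) and miR-429 (-0.57) in PYS against L-1210, and miR-200a (-0.36), miR-200b (-0.93) and miR-429 (-0.50) in PYS against M1. With snoRNA202 alone, 0 were higher and 3 lower both in L-1210 and in PYS, miR-200b being added (-1.53 and -1.04), 2 lower in L-1210 against M1, and 2 higher and 1 lower in PYS against L-1210. It called 42 of all 333 assays higher and 240 lower in L-1210, and 121 of 362 higher and 161 lower in PYS. It also called 179 of 304 lower in L-1210 against M1, and 217 of 349 higher and 73 lower in PYS against L-1210. It turned miR-200a (-0.38), miR-200b (-1.53) and miR-429 (-0.92) in L-1210, the same 3 in L-1210 against M1 (-0.75, -0.65 and -1.001), and miR-200b in PYS against L-1210 (0.49) and M1 (-0.16). With both snoRNAs and no MammU6, 0 were higher in L-1210 and in PYS, 3 lower in PYS with miR-200b added (-1.21), and 1 lower in L-1210 against M1. This scaling called 49 of all 333 assays higher in L-1210, 113 of 362 higher and 170 lower in PYS, and 135 of 304 lower in L-1210 against M1. It turned miR-200b (-0.77) and miR-429 (-0.15) in L-1210, miR-200a (-0.22), miR-200b (-0.11) and miR-429 (-0.46) in L-1210 against M1, and miR-200b (-0.55) and miR-429 (-0.11) in PYS against M1.

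With no fold minimum, 1 member was higher in M1 (beside 96 of all 325 assays), 2 in PYS (166 of 362) and 1 in PYS against M1 (170 of 340). With only assays detected in all 12 replicates, miR-141 left the test by construction, so that 1 was lower in each of L-1210, M1, PYS, PYS against L-1210 and PYS against M1. Of the 187 assays then tested, 68, 52, 62, 42 and 56 were called lower in these comparisons. Ct limits of 32 and 40 set the bound of miR-141 in PYS at -4.45 and -12.45. Leaving out each replicate in turn gave 1 to 2 members higher in L-1210 and 1 to 2 in PYS, and 29 to 35 ratios without overlap. It moved miR-200b from -0.23 to 0.60 in L-1210, from -0.79 to 0.046 in PYS and from -0.18 to 0.33 in PYS against M1, and miR-429 from -0.059 to 0.65 in L-1210 against M1 and from -0.10 to 0.47 in PYS against L-1210. Replicates that share a number did not deviate together (correlations from -0.45 to 0.33, over 0.1 in 3 of 18 pairs). The fit with the replicate number as a block left all 30 results, each a member in a comparison, on the same side of the threshold. Examples are miR-200c in PYS at -4.06 and miR-200a in L-1210 at 1.26.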

Other observations

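The 6 miRNAs of the miR-34 and miR-192 families, which are tied to Snail, Zeb and Hnf factors, had called changes in both directions. miR-34a, which targets Snail mRNA, amplified in CT-BM (-8.36, -8.93 and -8.88) and L-1210 (-8.16, -7.14 and -7.74) and in no replicate of M1 or PYS. In L-1210, 4 of the 6 were called higher than in CT-BM, among them miR-34a (2.06-fold) and miR-34b-3p (3.28-fold), beside 22.5% of all assays. Another of the 4, miR-34c, was detected in no CT-BM replicate. It entered that test through L-1210 alone, so the filter largely set its direction. In M1, 2 of 5 tested were called lower, miR-34a and miR-215 (5.29-fold), beside 44.3% of all assays. In PYS, 2 of 6 were lower, miR-34a and miR-194 (2.08-fold), beside 38.7%, and 1 of 6 was higher, beside 39.8%: miR-34c was at least 5.75-fold higher (n = 2 against 3). These shares in M1 and PYS are at or below those of all assays, and miR-34a and miR-34c were called in opposite directions in PYS. There miR-34c entered the test through PYS alone. The assay of miR-34a entered through CT-BM alone in M1 and in PYS.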
